A study of Gallus gallus with 6 samples.

Results

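Chicken chromosomes 9, 10, 11 and 12 carried 3831 regions with a TCF21 peak in each of 3 immunoprecipitations, which is 10.2% of the 37420 such regions in the series. Peaks were joined into a region where they overlapped by at least 1 bp, and a region was kept where every one of the 3 peak lists had a peak in it. These shared regions made up 48.3% of the 7931 regions called in any list on the 4 chromosomes, against 46.5% of the 80554 regions of the whole series. Chromosomes 9, 10, 11 and 12 held 1111, 999, 763 and 958 of them. The chromosomes are of similar length, since the last peak ended at 24.1 Mb on chromosome 9, 20.4 Mb on chromosome 10, 20.2 Mb on chromosome 11 and 19.9 Mb on chromosome 12. No source used here names the genome build that these positions refer to, and no annotation or sequence of the assembly that the scaffold names in the lists point to was used here. No gene was therefore assigned to a region and no sequence is shown.

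TCF21 is a basic helix-loop-helix transcription factor, a class of proteins that pair with a partner of the same class and bind short E-box motifs. It is known from mouse development as a factor of mesoderm-derived organs, and it is used as a marker of progenitor cells in white fat. Bird genomes combine a few large chromosomes with many small ones. The small ones are known to be richer in genes and in G and C bases, and chromosomes 9 to 12 lie near the boundary of both kinds.

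The 3 immunoprecipitated samples came from adipose-derived preadipocytes that stably overexpress TCF21 (labelled LV-TCF21), cultured for 24 h in differentiation medium with 300 µM oleic acid and precipitated with an antibody against the HA epitope. The 3 input DNA samples came from the same kind of cells with the same treatment and no antibody. Both groups overexpress the factor, so these regions describe its binding at a raised level, and the sources used here do not say whether the cells are 1 clone. A control with rabbit IgG, named in the protocol, was not analysed here. The labels name no separate cultures, so the spread given below is between samples and may be technical.

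Lists 1, 2 and 3, named by the number in their peak names, held 6050, 5751 and 5617 peaks on the 4 chromosomes. The pileup of a peak is the number of fragments stacked at its summit. Over these peaks it had a median of 16, 15 and 13 fragments, in the order of the lists. Sequencing depth is unknown and was not corrected for, and list 3 had the lowest pileup, alone or tied, at 2779 of the 3831 regions. The regions shared by all lists had a median mean pileup of 20.7 fragments and a median width of 552 bp. Those left out because 1 list lacked a peak numbered 1409, with 10.0 fragments and 343 bp. The 2691 regions of a single list had 8 fragments and 237 bp. These widths span all joined peaks of a region, so they depend on the number of lists by construction. Within lists 1, 2 and 3, the median peak width at shared regions was 447, 424 and 401 bp. The number of lists was also the rule for keeping a region, so these differences are a description.

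Chromosome 11 had the fewest TCF21 peaks for its length, in every list. Peaks per Mb of chromosome 11 were 60.7 in list 1, 58.3 in list 2 and 56.8 in list 3. Chromosome 9 had 73.2, 69.1 and 66.1 peaks per Mb. The highest values were those of chromosome 10, with 76.1, 73.1 and 71.2, and of chromosome 12, with 76.0, 71.5 and 71.8. Chromosome 11 did not overlap the others, chromosome 9 was below chromosomes 10 and 12 in each list, and chromosomes 10 and 12 changed places between lists. The lists placed the chromosomes in a similar order (exact permutation test of the chromosome labels within each list, p = 0.00521, adjusted p = 0.0139 over 4 measures). This test concerns lists that measured the same chromosomes, and says that they ordered them similarly. Chromosome 11 had 58.6 ± 2.01 peaks per Mb and the other chromosomes had a mean of 72.0 ± 2.78 (SD, n = 3), a difference of −13.4 ± 0.808 that was negative in 3 of 3 lists. A sign-flip permutation test over 3 lists cannot go below 0.25, which is the exact p here. Among the other 3 chromosomes the mean of the highest was 1.06 times that of the lowest, against 1.25 times with chromosome 11.

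**Figure D1:**
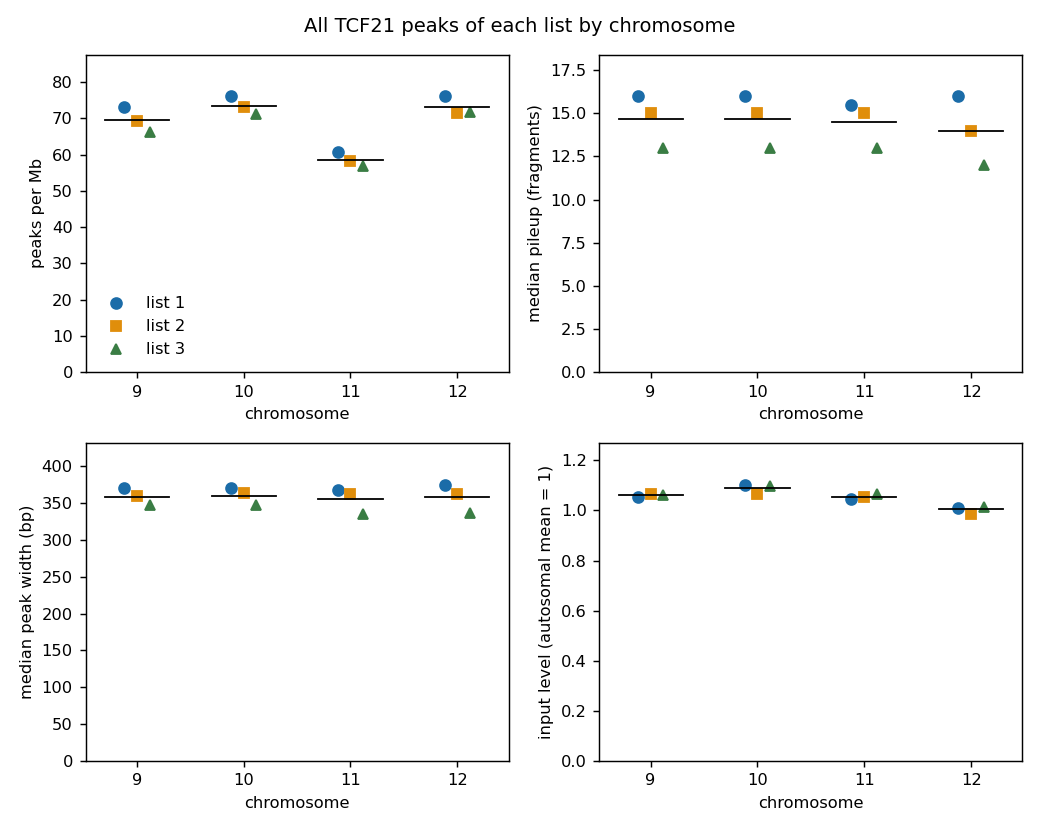
Peaks per Mb, median pileup, median peak width and mean input level of all peaks on chromosomes 9 to 12, with 1 point per list and a line at the mean of 3 lists. Chromosome 11 lies lowest in peaks per Mb in each list, at 58.6 on average, while median pileups lie between 12 and 16 fragments on every chromosome.

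The regions shared by the lists showed the same contrast. Their density was 37.9 per Mb on chromosome 11, against 46.2 on chromosome 9, 49.1 on chromosome 10 and 48.1 on chromosome 12. Chromosomes 9 and 10 had no peak before 561897 and 566058. Counting from the first peak gave 37.9 against 47.3, 50.5 and 48.4 per Mb. Together the regions covered 2.45% of chromosome 11, 3.04% of chromosome 9, 3.13% of chromosome 10 and 3.13% of chromosome 12. Strong regions were also counted by chromosome. The fold enrichment is over the control of the peak call, called input here although no source used here names that control library. Regions where it was at least 10 in all 3 lists numbered 184 on chromosome 11, or 9.13 per Mb. Chromosomes 9, 10 and 12 had 272, 226 and 214, or 11.3, 11.1 and 10.7 per Mb. They made up 24.1% of the shared regions of chromosome 11, against 24.5%, 22.6% and 22.3% on chromosomes 9, 10 and 12. Their lower density on chromosome 11 thus repeats that of all shared regions.

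In contrast to their number, the strength and shape of the peaks differed little between the chromosomes. The median pileup of all peaks was 16, 15 and 13 fragments in lists 1, 2 and 3 on chromosomes 9 and 10, 15.5, 15 and 13 on chromosome 11, and 16, 14 and 12 on chromosome 12. No difference between chromosomes passed the test (exact permutation test, p = 0.25, adjusted p = 0.333), and no pair differed by more than 1 fragment in a list. Median peak widths were 359 ± 11.5 bp on chromosome 9, 360 ± 11.9 bp on chromosome 10, 355 ± 17.8 bp on chromosome 11 and 358 ± 19.3 bp on chromosome 12 (SD, n = 3). Widths gave no call either (exact permutation test, p = 0.653, adjusted p = 0.653), and the widest difference between any pair in a list was 12 bp. Fold enrichment, the authors' ratio of pileup to input with 1 added to both, had medians of 5.23 ± 0.115, 5.25 ± 0.0517, 5.20 ± 0.0112 and 5.23 ± 0.192 on chromosomes 9, 10, 11 and 12. Chromosome 11 was lower than the mean of the others in 3 of 3 lists, with a difference of −0.0380 ± 0.0348 (exact sign-flip test, p = 0.25, the smallest it allows).

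For the shared regions, each taken at its most enriched peak of a list, the medians also differed little. Their median pileup was 24, 21 and 18 fragments in lists 1, 2 and 3 on chromosomes 9 and 11, 24, 22 and 18 on chromosome 10, and 23, 20 and 17 on chromosome 12. Chromosome 12 was the lowest in every list, by 1 or 2 fragments. This difference was not tested. The upper quartile was 46, 41 and 34 fragments on chromosome 11, the highest or level with the highest in each list, and 39, 37 and 30 on chromosome 12, the lowest in each. The 90th percentile was 80, 75 and 64 on chromosome 11, the highest in each list. It was 70.3, 63.3 and 54.3 on chromosome 12, the lowest in each. The upper values thus differed more than the medians, which was not tested. Median widths of the joined regions were 557 bp on chromosome 9 (interquartile range 425 to 793 bp), 548 bp on chromosome 10 (420.0 to 775 bp), 546 bp on chromosome 11 (423 to 751 bp) and 564 bp on chromosome 12 (431 to 762 bp).

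The regions with the highest pileup were spread over all 4 chromosomes. Of the 100 highest by mean pileup, chromosomes 9, 10, 11 and 12 held 25, 26, 23 and 26. Of all shared regions they held 29.0%, 26.1%, 19.9% and 25.01%, in the same order. The highest was at chromosome 9, 19498068 to 19499058, where 252, 252 and 229 fragments were stacked in lists 1, 2 and 3 and the summits lay within 5 bp of each other. It ranked 9 in the whole series by mean pileup. Its fold enrichment varied far more, at 71.8, 48.0 and 91.7, over input levels of 2.52, 4.27 and 1.51 fragments. In the same 1-Mb window, at 19363131 to 19364920, another region had 189, 193 and 184 fragments, the smallest spread of the regions named here for their pileup. The second highest of chromosome 9, at 23013960 to 23015781, had 217, 218 and 179 fragments. By fold enrichment the second was at 12927177 to 12928053, with 61.3, 65.4 and 57.4 and a pileup of 168, 158 and 143 fragments. Its fold enrichment was more even between lists than that of the highest region.

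On chromosome 10 the highest pileup was at 1123065 to 1124162, with 227, 203 and 217 fragments. It was followed by 19730833 to 19732270, with 215, 215 and 182, and by 12282755 to 12283583, with 219, 213 and 170. These regions lay in different parts of the chromosome, and their pileups overlapped between lists, so their order is not resolved. The region at 14639899 to 14641663 had the highest mean fold enrichment of the chromosome, at 66.5, 64.5 and 62.9 in lists 1, 2 and 3, with 203, 208 and 182 fragments. Its fold enrichment varied by an SD of 1.82, against 22.6 at the region in second place by this measure, at 19730833 to 19732270, with 35.7, 79.8 and 66.2.

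The region at chromosome 11, 762708 to 763914, had its summit at the same base in all 3 lists. It carried 208, 191 and 198 fragments and the highest mean fold enrichment of the chromosome, at 59.4, 66.3 and 61.0. The regions at 2443161 to 2444389, with 215, 206 and 184 fragments, and at 17980576 to 17981785, with 201, 212 and 189, were higher by mean pileup, but the values of the 3 regions overlapped. All of them lay within the outer 4 Mb of the chromosome. A strong region in its sparse middle, at 13571028 to 13572023, had 154, 143 and 141 fragments and ranked second by fold enrichment, at 44.02, 70.8 and 56.6.

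Chromosome 12 had its highest pileup at 9157242 to 9159943, a region 2702 bp wide with 201, 210 and 184 fragments. The next, at 11489421 to 11490477, had 182, 190 and 165 fragments and the highest mean fold enrichment of the chromosome, at 68.3, 53.3 and 60.1. The region at 390890 to 391858 had 193, 168 and 172 fragments, while its fold enrichment was 25.1, 27.6 and 74.95, with an input level of 6.72, 5.12 and 1.31 fragments. Here lists 1 and 2 stood apart from list 3 in the input and not in the pileup. The region at 17993253 to 17994059 ranked second by fold enrichment, at 75.4, 55.1 and 38.7, with 146, 105 and 96 fragments. Its input level was at the lowest value of the list in lists 1 and 2, so that floor set its fold enrichment there.

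**Figure D2:**
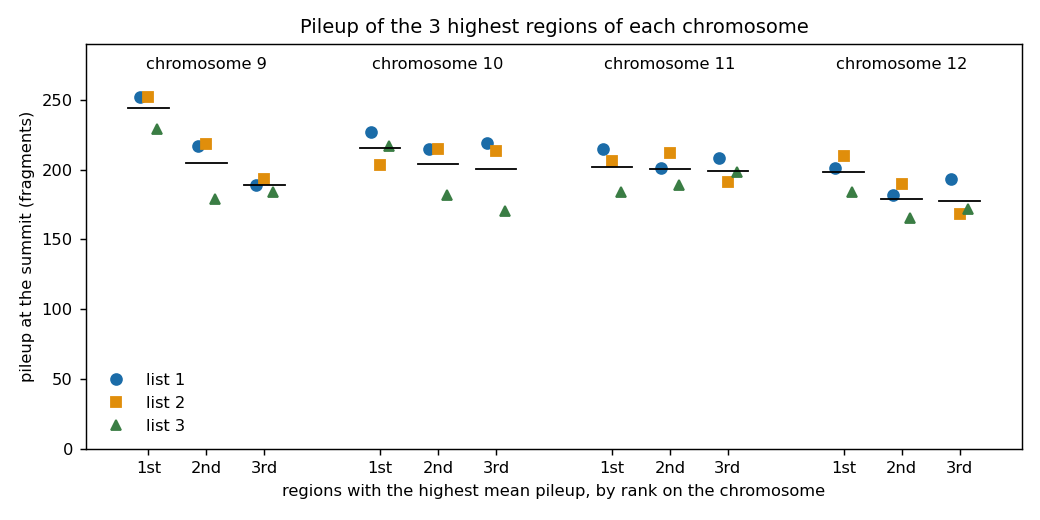
Pileup at the summit in fragments of the 3 regions with the highest mean pileup on each of chromosomes 9, 10, 11 and 12, with 1 point per list and a line at the mean. Means run from 178 to 244 fragments, and list 3 is the lowest at most of the 12 regions.

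Along the chromosomes, the number of regions per 1-Mb window varied most on chromosome 11 and least on chromosomes 10 and 12. Windows of chromosome 11 held 9 to 85 regions with a median of 29.5, and their SD was 57.1% of their mean. Windows of chromosome 9 held 12 to 83 (median 47.5, SD 41.8% of the mean), those of chromosome 10 held 22 to 66 (median 49.5, 26.8%) and those of chromosome 12 held 28 to 71 (median 45, 28.0%). The last partial window was left out, which left 24, 20, 20 and 19 windows on chromosomes 9, 10, 11 and 12. Outside these 4 chromosomes, the SD was 46.6%, 47.9% and 52.4% of the mean on chromosomes 6, 7 and 8. On chromosomes 13, 14 and 15 it was 57.7%, 41.8% and 23.5%, so uneven windows were not particular to chromosome 11. Windows are stretches of 1 chromosome and not replicates, so these values are a description. The lists gave the same picture, since the peak numbers of 83 windows had a Pearson's r of 0.975, 0.969 and 0.973 between lists 1 and 2, 1 and 3, and 2 and 3 (Spearman's rho 0.976, 0.967 and 0.970), in samples that share the genome and its mappable parts.

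**Figure D3:**
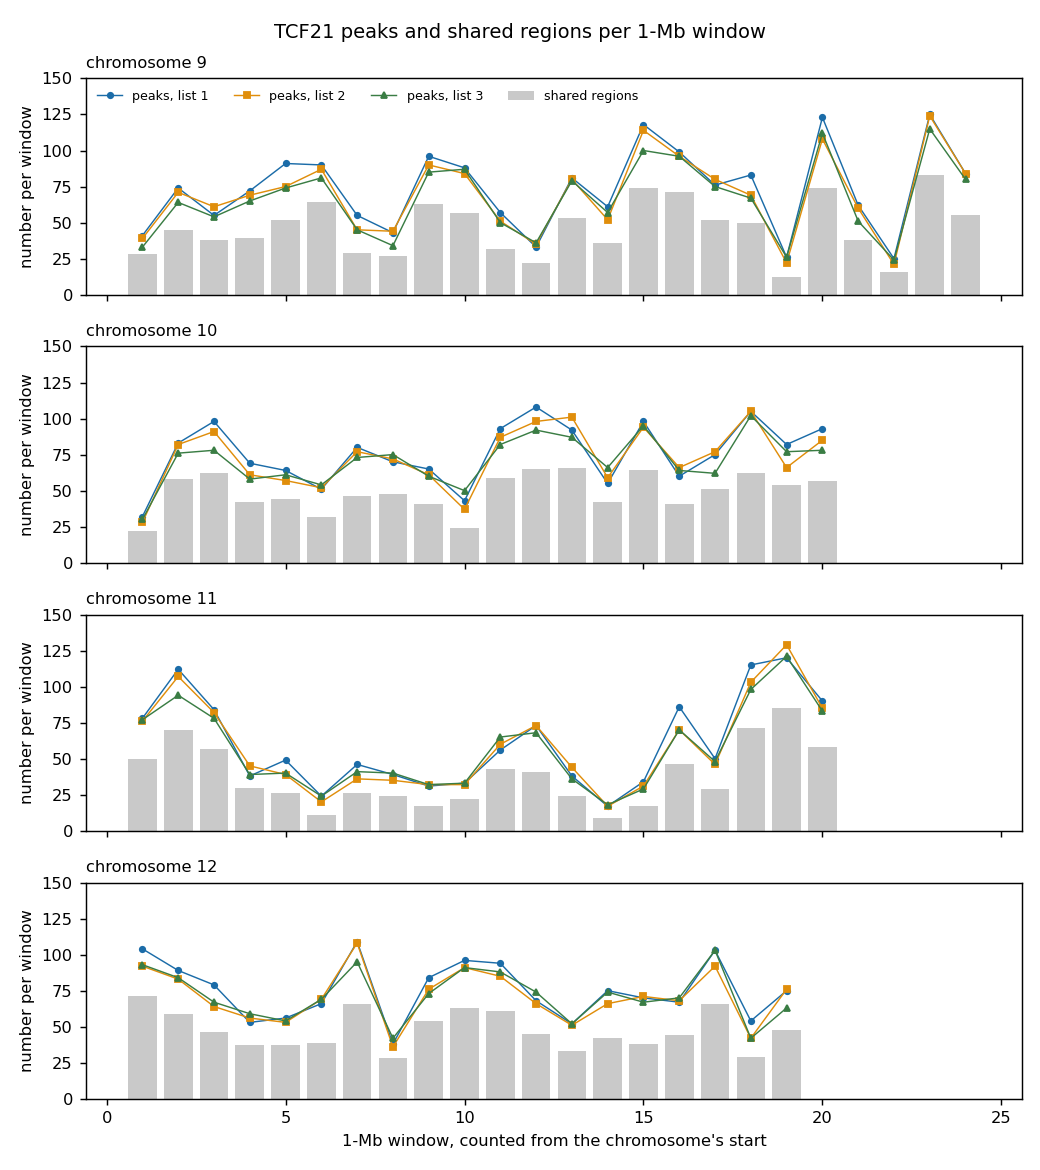
Number of peaks of each list (lines) and of shared regions (bars) in consecutive 1-Mb windows of chromosomes 9, 10, 11 and 12. Chromosome 11 holds 9 regions in its sparsest window and 85 in its densest, while chromosomes 10 and 12 stay between 22 and 71.

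The densest window of the 4 chromosomes was at chromosome 11, 18000001 to 19000000. It held 85 shared regions, with 120, 129 and 121 peaks in lists 1, 2 and 3. Strong regions as defined above were 30 of these 85, and they made up 24.1% of the shared regions of chromosome 11. The sparsest window lay on the same chromosome, at 13000001 to 14000000, with 9 regions, 4 of them strong, and 17, 17 and 18 peaks. Both windows were picked as the extremes of these counts, so the difference between them is a description. On chromosome 9 the densest window, at 22000001 to 23000000, had 83 regions and 125, 124 and 115 peaks, and its neighbour at 21000001 to 22000000 had 16 regions and 25, 21 and 24 peaks. The sparsest window of chromosome 9 was at 18000001 to 19000000, with 12 regions and 26, 22 and 26 peaks.

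Chromosome 10 reached 66 regions at 12000001 to 13000000, with 92, 101 and 87 peaks. Its sparsest window was the first, at 1 to 1000000, with 22 regions and 32, 28 and 30 peaks, and no list had a peak before 566058 there. Chromosome 12 had 71 regions at 1 to 1000000, with 104, 92 and 93 peaks, and 28 at 7000001 to 8000000, with 38, 36 and 42 peaks. In all, 6 windows held fewer than 20 regions, 4 on chromosome 11 and 2 on chromosome 9, and 19 windows held at least 60, of which chromosomes 9, 10, 11 and 12 had 6, 5, 3 and 5.

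The shortage of regions on chromosome 11 lay in its middle. A comparison of the outer 4 Mb at each end with the stretch between them was added after the windows had been seen, and was made alike on the 4 chromosomes. In the middle of chromosome 11, peaks per Mb were 43.9, 40.6 and 41.5 in lists 1, 2 and 3. At its left end they were 78.0, 77.5 and 72.0, and at its right end 94.5, 92.5 and 88.0. The middle did not overlap either end in any list, and the ends together were 1.99 ± 0.0855 times as dense as the middle (SD, n = 3). The same ratio was 0.892 ± 0.0319 on chromosome 9, 1.09 ± 0.0566 on chromosome 10 and 1.05 ± 0.0377 on chromosome 12. The left ends of chromosomes 9 and 10 include the stretches before their first peaks, at 561897 and 566058, which lowers their ratios. On chromosome 11 the first peak began at 276. Ratios without those stretches were not computed. The ratios of chromosome 11, at 1.96, 2.09 and 1.93 in the 3 lists, did not overlap those of the other chromosomes.

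**Figure D4:**
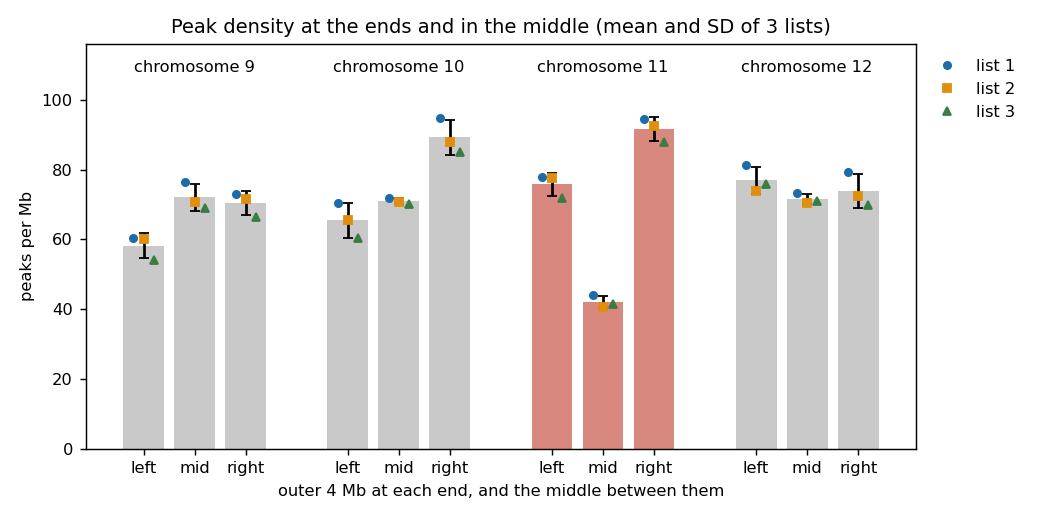
Peaks per Mb in the outer 4 Mb at the left and right end and in the middle of chromosomes 9, 10, 11 and 12. Bars are means and error bars SDs of 3 lists, and points are the lists. The middle of chromosome 11 stands at 42.0 peaks per Mb, against 75.8 and 91.7 at its ends, and the middle stretches of chromosomes 9, 10 and 12 at 72.1, 71.0 and 71.5.

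In shared regions, the middle of chromosome 11 had 25.5 per Mb, from 310 regions, and its left and right ends had 51.8 and 61.5 per Mb, from 207 and 246. Both ends of chromosome 11 were above the middle stretches of chromosomes 9, 10 and 12, which had 48.1, 46.9 and 46.0 regions per Mb. With end stretches of 5 Mb, the left end of chromosome 11 had 46.6 regions per Mb and was below the middles of chromosomes 10 and 12, which had 47.2 and 47.1. The regions of the sparse middle had a median pileup of 19.3 ± 3.06 fragments against 22.3 ± 4.04 at the left and 22.2 ± 3.25 at the right end, and median widths of 506 bp against 577 and 563 bp. The differences in pileup and width were not tested. The input level at peaks, relative to the mean over all autosomal peaks of a list, was lower there too, at 0.996 ± 0.00926 against 1.08 ± 0.0300 and 1.11 ± 0.0116. The part of the input level in the density was not tested.

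Neighbouring regions on chromosome 11 were a median of 9.63 kb apart, from the end of one to the start of the next. The median gap was 7.57 kb on chromosome 9, 7.63 kb on chromosome 10 and 8.14 kb on chromosome 12. Short gaps were alike: the lower quartile was 2.30 kb on chromosome 11 and 2.17, 2.46 and 2.39 kb on chromosomes 9, 10 and 12, and 14.2% of gaps on chromosome 11 were under 1 kb, against 13.3%, 13.3% and 13.9%. Long gaps were not. Gaps of at least 100 kb numbered 38 on chromosome 11 and took up 37.5% of its span, against 34, 31 and 29 gaps and 26.3%, 23.7% and 22.7% on chromosomes 9, 10 and 12. Of the 38, 29 lay in the middle of the chromosome, which takes up 12.2 of its 20.2 Mb. Such a share was not particular to chromosome 11. Gaps of at least 100 kb took up 33.1%, 36.5% and 37.9% of the span of chromosomes 6, 7 and 8. On chromosomes 13, 14 and 15 they took up 30.6%, 23.5% and 22.4%.

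The longest gap of chromosome 11, of 702 kb, ran from 2727348 to 3429085, within its left 4 Mb. The longest gap of chromosome 9 was 476 kb, from 18101303 to 18577374, inside its sparsest window. Those of chromosomes 10 and 12 were 361 kb, from 15015279 to 15376521, and 406 kb, from 7972825 to 8379307. Whether sequence that cannot be mapped lies in these gaps was not tested.

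About 1 region in 3 belonged to a cluster, here a chain of at least 5 regions with gaps of at most 10 kb. The 4 chromosomes held 177 clusters with 1264 regions, or 33.0% of all. Clusters took 36.5% of the regions of chromosome 9, 33.1% of chromosome 10, 30.0% of chromosome 11 and 31.2% of chromosome 12, in 55, 45, 34 and 43 clusters. Per Mb this was 2.28, 2.21, 1.69 and 2.16 clusters, so chromosome 11 had the fewest of the 4. Elsewhere, clusters took 32.9% of the regions of chromosomes 6 to 8, 34.3% of chromosomes 13 to 15 and 29.6% of the 27 other numbered autosomes together. Chromosome 7 had 1.63 clusters per Mb and 30.0% of its regions in clusters. Neither the share of the 4 chromosomes nor the low values of chromosome 11 were thus particular to them. A typical cluster was short, with a median length of 23.3, 23.8, 20.8 and 21.3 kb on chromosomes 9, 10, 11 and 12.

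The largest cluster was at chromosome 10, 2930817 to 2986841, with 19 regions in 56.0 kb and 21 peaks in each list. Its strongest region, at 2955309 to 2956041, had 111, 109 and 104 fragments, and the weakest had a mean of 10.0 fragments. The largest cluster of chromosome 9, at 17935029 to 17979966, had 17 regions in 44.9 kb. It ended with its strongest region, at 17979359 to 17979966, with 124, 103 and 85 fragments. The largest cluster of chromosome 11, at 18473803 to 18504370, was the most compact of the largest ones, with 14 regions in 30.6 kb that covered 44.1% of it. That of chromosome 12, at 18577279 to 18634054, had 15 regions in 56.8 kb, and its strongest, at 18591443 to 18592831, had 176, 171 and 127 fragments. These clusters thus mixed strong and weak regions.

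Regions in clusters had slightly higher pileups and wider peaks than regions outside them. Their median pileup was 26, 23 and 19 fragments in lists 1, 2 and 3, against 23, 20 and 17 outside, a difference of 2.67 ± 0.577 fragments (SD, n = 3). The median peak width was 476, 458 and 432 bp in clusters and 435, 409 and 389 bp outside, a difference of 43.8 ± 4.16 bp. The input level differed in the same direction, with 1.20 ± 0.0194 in clusters and 1.08 ± 0.0142 outside. All 3 measures were higher in clusters in 3 of 3 lists, and the exact sign-flip test over lists gave p = 0.25 for each, the smallest it allows. Median fold enrichment, where the input is divided out, was 7.82, 7.25 and 7.25 in clusters and 7.63, 7.03 and 7.05 outside. On chromosome 11 the pileup hardly differed, at 24, 22 and 18 fragments in clusters and 24, 21 and 17 outside. Its median fold enrichment was 7.30, 7.15 and 6.89 in clusters and 7.69, 7.03 and 7.18 outside, so it was lower in clusters in lists 1 and 3. On chromosome 12 it was lower in clusters in list 2, at 7.25 against 7.45, and on chromosomes 9 and 10 it was higher in every list. The chromosomes were not tested against each other on these differences. The part of the input level in them was not tested.

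Among the 4 chromosomes, the mean input level at the peaks was lowest on chromosome 12. Relative to the autosomal mean, it was 1.00 ± 0.0163 there. It was 1.06 ± 0.00481, 1.09 ± 0.0213 and 1.05 ± 0.0105 on chromosomes 9, 10 and 11 (SD, n = 3). By this mean, chromosome 12 was lowest in every list, while the order of chromosomes 9, 10 and 11 varied between lists. By the median it was lowest in lists 1 and 2, and all 4 chromosomes had 0.943 in list 3. Outside these chromosomes, the mean was 1.00 ± 0.0115 on chromosomes 13 to 15 and 0.994 ± 0.000993 on the 27 other numbered autosomes. Chromosome 12 was thus near those groups, and its level was not particular to it. The lists placed the chromosomes in a similar order (exact permutation test within lists, p = 0.00694, adjusted p = 0.0139). The ratio of the highest to the lowest chromosome was 1.08. Leaving out any 1 list ended this call and that on density, but the exact permutation test with 2 lists allows no adjusted p below 0.167 for a single measure. Peaks at the floor of the input level made up 3.64 ± 1.31% on chromosome 12, and 2.09 ± 0.697%, 1.75 ± 0.494% and 2.66 ± 0.899% on chromosomes 9, 10 and 11.

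Windows with few regions tended to have a low input level. Over 83 windows, the number of regions and the mean input level at peaks had a Pearson's r of 0.575 and a Spearman's rho of 0.551. Within chromosomes 9, 10, 11 and 12, rho was 0.737, 0.399, 0.772 and 0.409 over 24, 20, 20 and 19 windows. Windows share libraries, neighbours and base composition with each other, so these values are a description. The sparsest window, at chromosome 11, 13000001 to 14000000, had an input level of 0.744 ± 0.0333, and the sparse one at chromosome 9, 21000001 to 22000000, had 0.764 ± 0.120. The sparsest window of chromosome 9 had 1.04 ± 0.219, with 0.926 and 0.902 in lists 1 and 3 and 1.29 in list 2, so its higher mean rests on list 2. The 19 windows with at least 60 regions had levels of 1.01 to 1.18. Peaks at the floor of the input level made up 19.2% in the sparsest window of chromosome 11. They made up 14.3% in the window of chromosome 9 at 21000001 to 22000000, and 0 to 2.62% in the 19 dense windows. The part of the input level in the number of regions was not tested.

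**Figure D5:**
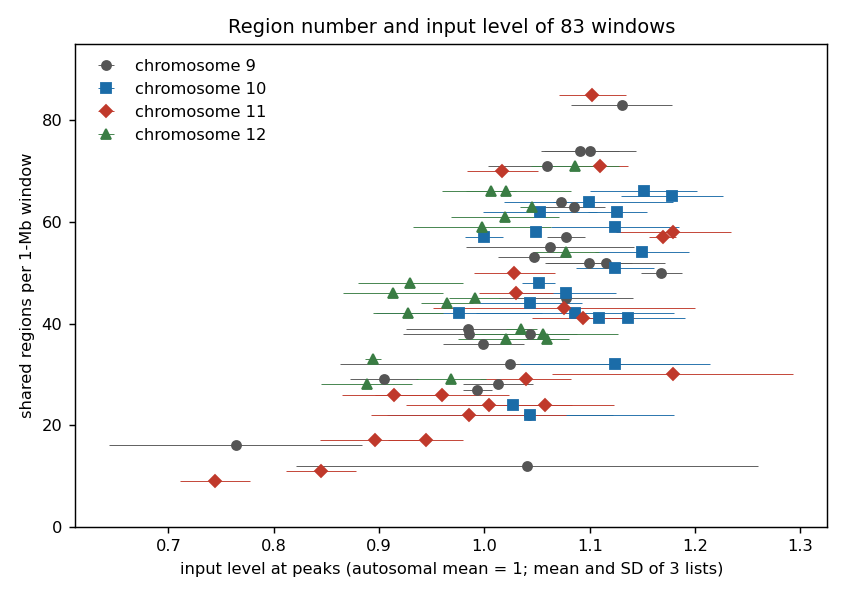
Number of shared regions against the relative input level at peaks in 83 windows of 1 Mb on chromosomes 9, 10, 11 and 12 (points are means and horizontal bars SDs of 3 lists). Windows with at least 60 regions lie at input levels of 1.01 to 1.18, and the window with 9 regions lies at 0.744.

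Regions at least 2 kb wide were few, 25 of 3831. On chromosome 11, the region from 18482240 to 18485761 spanned 3522 bp, more than any other here, and held 8 peaks, with 108, 123 and 88 fragments at the strongest summit of lists 1, 2 and 3. It was also the strongest region of the largest cluster of that chromosome. The widest of chromosome 9, at 22863346 to 22866761, was 3416 bp long with 79, 97 and 84 fragments. Its summits spanned 1398 bp, since list 2 had its summit at 22864018 and lists 1 and 3 at 22865416 and 22865340. The widest regions of chromosomes 10 and 12 were 2843 bp, at 17720318 to 17723160 with 82, 57 and 61 fragments, and 3294 bp, at 9955033 to 9958326 with 170, 163 and 143. Regions with more than 1 peak of some list made up 7.92% on chromosome 9, 6.71% on chromosome 10, 7.08% on chromosome 11 and 6.68% on chromosome 12.

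Summits and heights were compared between lists in the shared regions only. Their peaks were joined by overlap, which itself keeps summits close. The median distance between the summits of a pair of lists was 25.3 ± 0.577 bp (SD, 3 pairs), and 90.0 ± 0.558% were within 100 bp. The SD of the pileup over lists was a median of 18.9% of its mean, and that of the fold enrichment 23.1%. Depth was not corrected for, so the spread of the pileup includes any offset between whole lists. Among regions with a mean pileup of at least 50 fragments, the most uneven was at chromosome 12, 3470773 to 3471497, with 81, 58 and 36 fragments. Its summits were within 7 bp of each other.

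Chromosomes 9 to 12 together had more peaks for their length than chromosomes 6 to 8, and fewer than chromosomes 13 to 15. They had 68.7 ± 2.62 peaks per Mb, against 60.8 ± 1.72 on the larger chromosomes 6 to 8, 72.3 ± 2.85 on the smaller chromosomes 13 to 15 and 55.6 ± 1.88 on the 27 other numbered autosomes together (SD, n = 3). The differences were 7.86 ± 1.11, −3.65 ± 1.54 and 13.1 ± 1.504, with the same sign in 3 of 3 lists each, and the exact sign-flip test gave its smallest p of 0.25 for each. Shared regions numbered 45.3 per Mb here, 40.1 on chromosomes 6 to 8 and 48.3 on chromosomes 13 to 15. Chromosome 11 alone, with 37.9 per Mb, was below each of chromosomes 6, 7 and 8, which had 41.4, 39.6 and 39.2. Chromosomes 13, 14 and 15 had 42.3, 50.8 and 54.1, so chromosome 13 was below chromosomes 9, 10 and 12. Without chromosome 11, the mean of chromosomes 9, 10 and 12 was 72.0 ± 2.78 peaks per Mb, close to that of chromosomes 13 to 15. Single chromosomes thus did not follow the order of the groups.

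The median pileup of all peaks was 16, 15 and 13 fragments in lists 1, 2 and 3 here and the same on chromosomes 6 to 8, and 16, 15 and 12 on chromosomes 13 to 15. The median fold enrichment of regions was 7.34 ± 0.311, against 7.38 ± 0.352 and 7.42 ± 0.375, which overlap. The relative input level was 1.05 ± 0.00909 here, 1.05 ± 0.00403 on chromosomes 6 to 8, 1.00 ± 0.0115 on chromosomes 13 to 15 and 0.994 ± 0.000993 on the other autosomes. It was above the last 2 groups in 3 of 3 lists (exact sign-flip p = 0.25). Peaks at the floor of the input made up 2.51 ± 0.775% here, 3.94 ± 1.40% on chromosomes 6 to 8 and 8.02 ± 2.33% on chromosomes 13 to 15, and were fewer here in 3 of 3 lists. The part of the input level in the densities was not tested.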

How the data were processed

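ChIP-seq of TCF21 comprised 3 immunoprecipitated and 3 input DNA samples. The authors deposited 3 peak lists, 1 per immunoprecipitation as the peak names show. MACS2, HOMER, bedtools, STAR 2.5.3a and Trimmomatic 0.36 are listed, without roles, per the submitters' processing notes. Per the file headers, the deposited signal is the pileup at the summit in fragments, the deposited ratio is the fold enrichment, and significance is deposited as the −log10 of the p-value and q-value. The smallest −log10 p was 2.00. The lists also give widths in bp. The number of a list was not matched to a replicate number, and the sources used here do not give build, calling threshold or total reads. Depth is therefore unknown, and no counting interval was computed.

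The level of the control, called the input level although its library is not named, was recovered as (pileup + 1) / fold enrichment − 1. For 99.9% of these peaks, a Poisson p computed from it differed from the deposited −log10 p by at most 0.01 plus 1%. It is the control level that the peak call used, not a count of control fragments under a summit. Levels within 2% of the lowest of a list count as its floor (0.948, 0.924 and 0.744 fragments in lists 1, 2 and 3). Relative levels are divided by the mean of autosomal peaks. Span is the end of the last peak. A region's value in a list is that of its most enriched peak, and its window follows its midpoint. Chromosomes were compared by exact permutation of their labels within lists (576 arrangements, smallest p 0.00174), Benjamini-Hochberg adjusted over 4 measures with a threshold of 0.05, and 6 pairs and other groups by sign-flips over lists. For each chromosome the text names the 3 regions of highest mean pileup, the 2 of highest mean fold enrichment, the widest, the one of highest mean input, the densest and sparsest full window, the largest cluster and the longest gap. It also names the most uneven region of at least 50 fragments. The members, lists and rules were chosen with earlier results of these data known. Other regions and windows named were chosen after their values were seen. Region joining, the input formula and the permutation test were tested on simulated data. Python 3.11.15, NumPy 2.4.6, pandas 2.3.3, SciPy 1.17.1 and Matplotlib 3.10.9 were used.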

Additional observations from a re-analysis of the deposited data

How the results depend on the processing

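No paired analysis was possible because list numbers could not be matched to replicate numbers and input samples have no values of their own, so immunoprecipitation and input could not be paired. Comparisons between chromosomes were paired by list. The 3831 regions became 2460 with a q-value of at most 1e-05, where fewer peaks enter. Values below are ratios of the highest to the lowest chromosome, and the causes of their shifts were not tested. The density ratio of 1.30 was 1.29 with a reciprocal overlap of 50%, 1.33 at that q-value, 1.28 with at least 2 of the 3 lists, 1.33 on the span from first to last peak, and 1.27 to 1.30 without each list; chromosome 11 was lowest in all of these. The pileup ratio of 1.07 was 1.10 with reciprocal overlap, 1.12 at the stricter q-value and 1.03 to 1.08 without each list. The width ratio of 1.03 was 1.019 with at least 2 lists and 1.01 to 1.04 without each list. The spacing ratio of 1.27 was 1.34 with reciprocal overlap. The highest or lowest chromosome changed under 4 settings for width, 2 for pileup and 2 for spacing, where chromosome 11 kept the longest median gap. For pileup, chromosome 11 was highest at the stricter q-value. Without list 3 it was level with chromosome 12 as lowest, at 19.5 fragments against 20 on chromosomes 9 and 10. The input ratio of 1.085 was 1.09 at the stricter q-value and 1.07 without peaks at the floor. The ratio of window variation, 2.13, was 1.55 in windows of 0.5 Mb and 2.60 in windows of 2 Mb, with chromosome 11 highest. The 177 clusters became 81 with gaps of at most 5 kb, 460 with at least 3 regions and 27 with at least 10, as the definition alone implies. The share in clusters was lowest on chromosome 10 with gaps of at most 5 kb and on chromosome 12 with 20 kb, not on chromosome 11. The density call was lost without each list (adjusted p = 0.167 to 0.333, exact permutation test) and without chromosome 11 (0.167, added after the data were seen). The input call was lost in the same cases (adjusted p = 0.167 to 0.333, and 0.167, exact permutation test). These reduced designs allow no exact permutation p below 0.0417 (2 lists) or 0.0278 (3 chromosomes), or 0.167 and 0.111 adjusted for a single measure of 4, so the lost calls say nothing about a list or chromosome 11. Both held at the stricter q-value (adjusted p = 0.0174, exact permutation test). Ends of chromosome 11 were 2.22 times as dense as the middle with end stretches of 3 Mb and 2.04 times with 5 Mb, also added later, against 1.99 with 4 Mb. Depth is unknown and could not be varied. The smallest pileups were 3 or 4 fragments, so weak peaks are coarse.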

Other observations

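Some regions stood alone. Regions with no other shared region within 100 kb on either side numbered 6 on chromosome 11, 4 on chromosome 9, 2 on chromosome 12 and 1 on chromosome 10. Their mean pileups ran from 7 to 19.3 fragments on chromosome 11, from 10.3 to 20.3 on chromosome 9 and from 11 to 37 on chromosome 12, and the one of chromosome 10 had 13.7 fragments. Most of them thus lay below the median of 20.7 fragments of all shared regions, but the numbers are too small for a comparison.

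At the other extreme, 88 neighbouring pairs of shared regions were less than 200 bp apart, 27 on chromosome 9, 28 on chromosome 10, 12 on chromosome 11 and 21 on chromosome 12. The shortest gap, on chromosome 12, was 1 bp.

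None of the 2691 single-list regions of these chromosomes reached a fold enrichment of 10, and 3 of 29237 did in the whole series. The most enriched of them, at chromosome 10, 18659383 to 18659693 in list 1, had a fold enrichment of 8.45 and 21 fragments.

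The highest mean input level of chromosome 12 was at 18631824 to 18634054, the last region of its largest cluster, with 3.10, 2.05 and 3.77 times the autosomal mean in lists 1, 2 and 3. The pileup there was 148, 149 and 123 fragments. On chromosomes 9, 10 and 11 the highest mean levels were 2.26 times at 4456974 to 4458310, 2.32 times at 2916579 to 2917024 and 2.31 times at 798847 to 799571, where the lists ranged from 1.29 to 3.70.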
